A study of Mus musculus with 65 samples.

Results

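Reactive astrocyte genes are transcripts that astrocytes are known to raise after injury, inflammation or neurodegeneration. The 10 genes described here were taken from a given list of reactive astrocyte markers and matched by gene symbol, and all 10 were found among the 49670 genes of the count table. They are the intermediate filaments Gfap and Vim, the secreted protease inhibitor Serpina3n, the complement component C4b, the hyaluronan receptor Cd44, the oncostatin M receptor Osmr, the sphingosine 1-phosphate receptor S1pr3, the iron-binding secreted protein Lcn2, the metalloproteinase inhibitor Timp1 and the metalloreductase Steap4. The series measured RNA from dissected cerebellum, medulla and pons of C57BL/6J mice by stranded sequencing, in 65 libraries that form 15 groups. The study asked how an antisense oligonucleotide (ASO) against Atxn1 acts in a model of spinocerebellar ataxia type 1 (SCA1), a disease caused by a lengthened glutamine repeat in ataxin-1.

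The disease model was a knockin of the allele labelled Atxn1[82Q], and its control was the wild type. Knockin mice received either the ASO or vehicle, and all wild type mice received vehicle. No wild type mouse received the ASO and no group received a control oligonucleotide, so an effect of the oligonucleotide itself and an effect of lower Atxn1 cannot be told apart. At 18 weeks of age there were 4 libraries in each of the 3 groups of cerebellum, and 3 in each group of medulla and of pons. At 28 weeks there were 8 wild type, 8 vehicle knockin and 7 ASO knockin libraries of medulla, labelled as 2 batches, and 4 libraries in each group of pons. The labels do not say whether libraries came from separate animals, so p-values measure only the spread between these libraries, which may be technical in part.

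In the healthy brain, astrocytes take up glutamate and potassium and support synapses. Reactive astrocytes enlarge their filament network, which is why Gfap is the marker used most, and cytokines of the interleukin-6 family drive part of this state through receptors that pair with gp130, such as the oncostatin M receptor, and the transcription factor STAT3. In the build GRCm38 (GENCODE vM21) Gfap lies at chr11:102887336-102900912, Cd44 at chr2:102811141-102901665, C4b at chr17:34728380-34743882 and S1pr3 at chr13:51408639-51422797. Several of the 10 genes are not made by astrocytes alone. Vim is also expressed by Bergmann glia, endothelium and ependyma, Cd44 and Timp1 by several reactive cell types, Steap4 by cells of the choroid plexus and vessels, and C4b by oligodendrocytes as well. The libraries come from whole tissue, so a change in the number of cells of a type and a change in RNA per cell cannot be told apart.

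Because STAT3 is a known driver of reactive astrocytes, the promoters of the genes were searched for its palindromic core, TTCNNNGAA. RefSeq promoters of the build GRCm38.p6 were at hand for 9 of the 10 genes, with none for C4b. The core occurred in 2 of the 9 promoters, those of Gfap and Steap4, against 8.3% of all 32851 promoters of the same length of 300 bases. The stretches from 200 bases before to 10 bases after the gene's start are shown for Gfap (chr11:102897191-102897400, minus strand) and Steap4 (chr5:7960272-7960481, plus strand), whose match is in capitals, and for Cd44 (chr2:102901656-102901865, minus strand), the gene of the 10 that varied most closely with Gfap below, whose promoter holds no match. Starts are those of RefSeq, and the one of Gfap lies inside the wider span that GENCODE gives this gene.
Gfap: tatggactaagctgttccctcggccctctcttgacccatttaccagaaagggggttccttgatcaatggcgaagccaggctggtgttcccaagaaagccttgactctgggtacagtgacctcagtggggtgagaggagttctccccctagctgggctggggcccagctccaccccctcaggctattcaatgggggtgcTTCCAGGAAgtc
Steap4: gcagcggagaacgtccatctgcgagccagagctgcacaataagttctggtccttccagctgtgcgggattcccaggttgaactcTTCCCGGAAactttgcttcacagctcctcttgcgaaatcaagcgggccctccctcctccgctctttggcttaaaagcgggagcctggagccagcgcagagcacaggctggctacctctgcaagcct
Cd44: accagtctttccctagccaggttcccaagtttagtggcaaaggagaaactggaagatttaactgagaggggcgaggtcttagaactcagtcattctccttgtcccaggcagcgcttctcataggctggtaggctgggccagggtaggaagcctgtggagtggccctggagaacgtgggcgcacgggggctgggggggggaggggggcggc
A match of these letters is a description of the sequence and not evidence of binding. The AP-1 core TGANTCA, read on both strands, was in 1 of the 9 promoters, that of Osmr, against 7.81% of all promoters. The TATA box letters TATAAA, on either strand, were in the promoters of Vim and Steap4, 2 of the 9, against 13.6% of all.

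Levels below are in CPM, the share of a library's counts that fall on a gene, with library sizes scaled by the TMM method over all 65 libraries. Total counts were 49.2 M to 119.1 M per library, with a median of 77.0 M. Atxn1, the target of the ASO, checks the labels, and 6 libraries were taken as going against theirs, chosen one by one and not by a threshold. In medulla at 18 weeks Atxn1 was at 49.5, 43.5 and 43.9 CPM with vehicle and at 13.3, 38.7 and 21.3 CPM with the ASO. The library labelled ASO replicate 2 was the nearest to the vehicle level there, though below every vehicle library. Within or above the vehicle range were those labelled ASO replicate 2 in pons at 18 weeks (50.9 CPM), in medulla at 28 weeks (49.4 CPM) and in pons at 28 weeks (50.9 CPM). The libraries labelled wild type replicate 3 at 18 weeks had little Atxn1, 15.3 CPM in the one from medulla and 16.4 CPM in the one from pons, below every other wild type library of their tissue. Not among the 6 were wild type replicate 1 of pons at 18 weeks, at 51.5 CPM against 44.0 to 49.2 CPM in vehicle knockin, and ASO replicate 4 of cerebellum, at 49.8 CPM against 57.4 to 64.5 CPM with vehicle. In medulla at 28 weeks 5 libraries had Hox genes, which mark position along the hindbrain, well below the rest, with summed levels of 32.9 to 121 CPM against a median of 270 CPM: ASO replicates 3, 6 and 7, vehicle replicate 8 and wild type replicate 5. Genes of the choroid plexus, led by the transthyretin gene Ttr, ranged from 1.48 to 23691 CPM for Ttr over all libraries and were not tied to any group. Some results that rest on these libraries are given with and without them. Of the 5 of low Hox genes, all but ASO replicate 3 lay within the range of pons at 28 weeks, 15.7 to 63.9 CPM. Leaving out the 5 is reported for knockin calls and correlations with Gfap. For ASO against vehicle, medulla against pons and interactions, values of the reactive genes without the 5 are not given. The ASO difference of Atxn1 in medulla at 28 weeks was -0.43 (edgeR adjusted p = 0.027), and -0.37 without the 5 (adjusted p = 0.4).

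Levels per length of exon showed which of the 10 genes dominate. In wild type medulla at 28 weeks Gfap had the highest level, at 178 ± 49.4 CPM per kb (SD, n = 8). Serpina3n followed at 27.5 ± 4.74, C4b at 15.5 ± 4.72 and Vim at 13.0 ± 2.62 CPM per kb, and the last 2 did not differ beyond their spread. S1pr3 was at 1.52 ± 0.114, Cd44 at 1.22 ± 0.283, Timp1 at 0.671 ± 0.243 and Osmr at 0.415 ± 0.0582 CPM per kb. Steap4 (0.124 ± 0.0391) and Lcn2 (0.101 ± 0.0629) were the lowest and overlapped. The length used is that of all annotated exons of a gene together. It is 12113 bases for Osmr and 2623 for Lcn2, whose longest transcripts have 5491 and 1374 bases. For Timp1 (888 and 883) and Steap4 (3155 for both) the 2 lengths are alike. The order of Osmr and Timp1, and of Lcn2 and Steap4, therefore depends on the length chosen. Lcn2 was counted 0 to 176 times per library and Steap4 4 to 119 times, so values of these 2 genes carry the largest counting error, while Gfap never had fewer than 13128 counts.

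**Figure D1:**
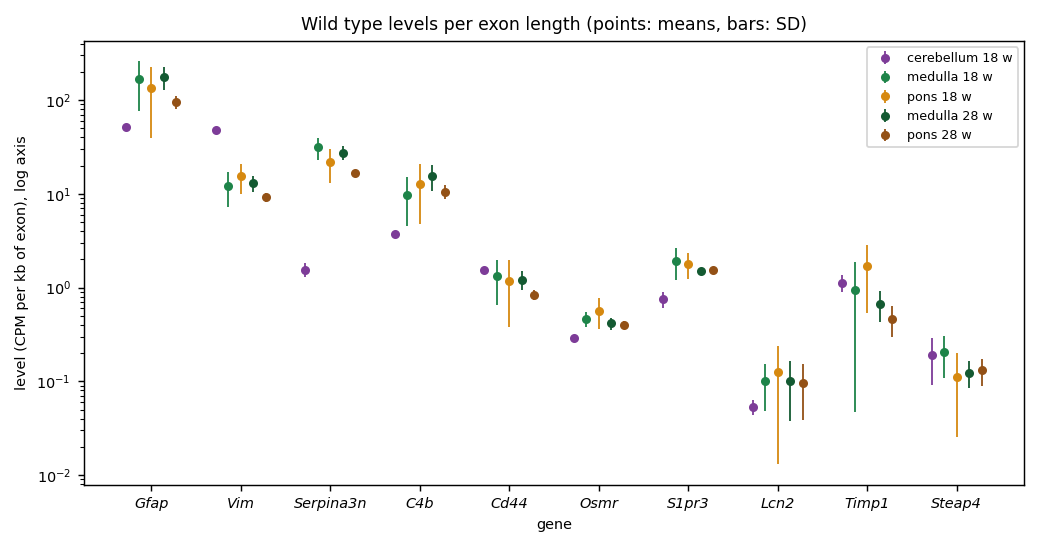
Level of each gene in wild type libraries of the 5 combinations of tissue and age, in CPM per kb of exon on a log axis (points are means, bars SD, n = 3 to 8). Gfap is the highest in every tissue, with Vim close to it in cerebellum, and Lcn2 and Steap4 are the lowest.

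The order differed in cerebellum, where the astrocytes include the Bergmann glia. Gfap, at 51.2 ± 3.25 CPM per kb, and Vim, at 47.7 ± 4.42 CPM per kb (SD, n = 4), were close to each other, and Serpina3n was at only 1.56 ± 0.271 CPM per kb, the same level as Cd44 (1.56 ± 0.119). Between wild type cerebellum and wild type medulla at 18 weeks, 54.0% of 21630 genes differed at an adjusted p under 0.05 (edgeR's quasi-likelihood test with Benjamini-Hochberg adjustment over all genes tested), and 6 of the 10 genes did. Serpina3n stood at 3.17, 2.68, 4.0 and 3.02 CPM in wild type cerebellum and at 54.7, 54.2 and 85.2 CPM in wild type medulla. No library of one tissue came near the other, and the log2 difference was -4.34 ± 0.32 (SE, edgeR adjusted p = 5.9e-11).

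Vim had the opposite order, at 236, 241, 195 and 233 CPM in cerebellum against 52.7, 36.7 and 83.7 CPM in medulla, a log2 difference of 1.96 ± 0.28 (edgeR adjusted p = 1.8e-06). Gfap was lower in cerebellum by a log2 difference of -1.73 ± 0.41 (edgeR adjusted p = 0.0011), S1pr3 by -1.36 ± 0.24, C4b by -1.40 ± 0.39 and Osmr by -0.70 ± 0.19. The C4b difference lost its call without the library labelled wild type replicate 3 of medulla (-0.88, edgeR adjusted p = 0.071). Cd44, Timp1, Lcn2 and Steap4 did not pass the test. Without the libraries whose Atxn1 went against the label Cd44 was called as higher in cerebellum (0.74 instead of 0.23, edgeR adjusted p = 0.015). Cerebellum against pons gave calls for the same 6 genes in the same directions, among 50.6% of genes called. There Gfap lost its call without the library labelled wild type replicate 3 of pons (-0.68 instead of -1.41, edgeR adjusted p = 0.18), and Cd44 gained one as higher in cerebellum (1.11, edgeR adjusted p = 0.014).

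Medulla and pons were closer. In wild type mice at 28 weeks 14.2% of 21718 genes differed between them, and 2 of the 10 genes did. Gfap was higher in medulla by a log2 difference of 0.86 ± 0.27 (edgeR adjusted p = 0.035) and Serpina3n by 0.72 ± 0.19 (edgeR adjusted p = 0.011). Serpina3n was at 32.8, 33.4, 37.8 and 32.5 CPM in pons and at 37.0 to 71.3 CPM, with a median of 57.6 CPM, in medulla, where 7 of the 8 libraries were above every pons library. After group and batch effects were removed, wild type replicate 5, a library of low Hox genes, was the lowest of the 8 for Serpina3n and for Gfap. The Gfap call was lost in 6 of 35 fits that left out 1 library, those without wild type replicate 6 or 8 of medulla or any 1 of the 4 wild type pons libraries (adjusted p up to 0.12), and with same-numbered libraries as a replicate block (0.72, adjusted p = 0.10), while Serpina3n kept its call in all 35 fits. Vim, at 0.47 (edgeR adjusted p = 0.055), was called in 6 of them, those without ASO replicate 1, vehicle replicate 2 or 4, or wild type replicate 2 or 5 of medulla, or ASO replicate 4 of pons (adjusted p 0.012 to 0.050). At 18 weeks none of the 10 genes differed between wild type medulla and pons by edgeR, with 0 at an unadjusted p under 0.05 and 0 by DESeq2, among 0.837% of genes called.

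The first question was whether the knockin raises these genes. In medulla at 28 weeks, the largest comparison, none of the 10 passed the test as higher. C4b was the only one to pass it and fell, and the group means of Gfap and S1pr3 were lower without passing it. There 19.3% of 20465 genes were called, 9.99% as lower. C4b, the complement component that is cleaved to start the opsonising cascade, was at 67.6 to 144 CPM with a median of 74.6 CPM in 8 wild type libraries and at 39.0 to 84.7 CPM with a median of 62.5 CPM in 8 vehicle knockin libraries. The ranges overlapped, and the log2 difference was -0.52 ± 0.18 (SE, edgeR adjusted p = 0.045).

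This call was a narrow one. It was lost in 15 of 23 fits that left out 1 library (adjusted p 0.010 to 0.11), those without ASO replicate 2, 4 or 6, vehicle replicate 1, 3, 4, 5, 7 or 8, or wild type replicate 1, 2, 3, 6, 7 or 8. The value stayed between -0.58 and -0.41 in all of them, and was -0.45 in batch 1 and -0.58 in batch 2, with adjusted p of 0.38 and 0.077. With the replicate number as a block the adjusted p was 0.073. The sum of 8 oligodendrocyte genes was 17941 to 24521 CPM in wild type and 13089 to 19195 CPM in vehicle knockin. Of the 8, 6 were called lower, where 9.99% of all genes were. The part of this sum in the C4b value was not tested. The C4b transcript shares 35.2% of its 50-base stretches with C4a, its near-identical neighbour, so reads of the pair may be split between them. C4a itself was at 1.38 ± 0.348 CPM in wild type and 1.30 ± 0.285 CPM in vehicle knockin medulla (SD, n = 8 each).

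Gfap was at 481 to 1159.8 CPM with a median of 717 CPM in wild type and at 327 to 789 CPM with a median of 517 CPM in vehicle knockin medulla at 28 weeks. Its log2 difference of -0.58 ± 0.21 did not pass the test (edgeR adjusted p = 0.059), and it was -0.56 in batch 1 and -0.59 in batch 2. It was called without ASO replicate 1, vehicle replicate 2 or 6, or wild type replicate 5 (edgeR adjusted p = 0.044, 0.035, 0.031 and 0.028), at -0.68 to -0.57. S1pr3, at -0.25 ± 0.10 (edgeR adjusted p = 0.072), was called without vehicle replicate 8 (-0.30, 0.032). DESeq2 called 3 of the 10 genes lower, Gfap, C4b and S1pr3, where it called 21.8% of all genes. Lcn2 and Steap4 had values above 0, at 0.64 ± 0.39 and 0.25 ± 0.29, and neither passed the test. The median log2 difference of the 10 genes was -0.10 against 0.01 over all genes tested.

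In pons at 28 weeks 0 of the 10 genes were called by edgeR, with 2 lower at an unadjusted p under 0.05 and 1 lower by DESeq2, among 9.79% of genes called by edgeR and 14.7% by DESeq2. Cd44 stood at 5.60, 5.12, 5.33 and 6.79 CPM in wild type and 4.0, 3.94, 3.56 and 4.88 CPM in vehicle knockin, with no overlap. Its log2 difference was -0.48 ± 0.17 (edgeR adjusted p = 0.082), and it was called without ASO replicate 1 (-0.49, 0.018) or vehicle replicate 4 (-0.59, 0.031). Osmr, at 4.22 to 5.23 CPM in wild type and 3.57 to 4.04 CPM in vehicle knockin, and S1pr3, at 6.73 to 6.94 and 5.33 to 6.49 CPM, did not overlap either. That makes 3 of 10 genes lower without overlap, where 8.39% of all genes were. The summed level of 10 endothelial genes was 282 to 300.1 CPM in wild type and 233 to 250.2 CPM in vehicle knockin, with 3 of the 10 called lower, and that of 8 oligodendrocyte genes was 16323 to 17668 and 10113 to 14998 CPM, with 4 of the 8 called lower. Their part in the values of the reactive genes was not tested. Osmr, at -0.39 ± 0.16 (edgeR adjusted p = 0.14), was called without ASO replicate 1 (-0.39, 0.023).

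In cerebellum at 18 weeks, the tissue in which Purkinje cells degenerate in SCA1, 0 of the 10 were called by edgeR, with 1 higher and 2 lower at an unadjusted p under 0.05 and 0 by DESeq2, among 2.71% of genes called by edgeR and 6.34% by DESeq2. Vim was at 236, 241, 195 and 233 CPM in wild type and 175, 177, 178 and 175 CPM in vehicle knockin. The knockin libraries agreed closely and lay below all wild type libraries, with a log2 difference of -0.37 ± 0.14 (edgeR adjusted p = 0.24). Cd44 also did not overlap, at 9.77 to 11.7 CPM in wild type and 8.63 to 9.64 CPM in vehicle knockin, which makes 2 of 10 lower without overlap against 10.1% of all genes. Serpina3n was at 3.17, 2.68, 4.0 and 3.02 CPM in wild type and 5.06, 5.54, 3.31 and 6.41 CPM in vehicle knockin (0.65 ± 0.30, edgeR adjusted p = 0.34).

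When only these 2 groups of cerebellum entered the fit, Serpina3n (0.66, edgeR adjusted p = 0.038) and Vim (-0.36, edgeR adjusted p = 0.0011) were called, 1 in each direction. Vim was called also without ASO replicate 3 of cerebellum (-0.37, edgeR adjusted p = 0.011). Gfap was at 216 ± 13.7 CPM in wild type and 204 ± 34.0 CPM in vehicle knockin cerebellum (SD, n = 4 each), a log2 difference of -0.09 ± 0.21.

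At 18 weeks in medulla and in pons, edgeR called 0 of the 10 genes between knockin and wild type, with 1 lower at an unadjusted p under 0.05 in each tissue and 0 by DESeq2. No gene of the whole table was called there (0% of 19514 and of 19806 genes). The library labelled wild type replicate 3 weighed on both. In medulla it was above both other wild type libraries for all 10 genes, with Gfap at 1164 CPM against 528 and 444 CPM. In pons it was above both others for 8 of the 10, with Gfap at 1010.4 CPM against 244 and 447 CPM. This is the library whose Atxn1 was low, in each tissue. Without it and the library labelled ASO replicate 2, the log2 difference of Gfap moved from -0.75 to -0.20 in medulla and from -0.66 to 0.06 in pons. In pons at 18 weeks S1pr3 was the 1 gene lower without overlap, where 9.4% of all genes were, at 6.42, 6.74 and 10.8 CPM in wild type and 5.56, 5.93 and 5.54 CPM in vehicle knockin. The knockin effect was also compared between tissues and ages by interaction terms, in which edgeR called 0 of the 10 genes and DESeq2 0. This held for medulla against pons at 28 weeks (0.0184% of all genes called, 0 of the 10 at an unadjusted p under 0.05), cerebellum against medulla at 18 weeks (0.162%, 0 of the 10) and 28 against 18 weeks in medulla (0.0046%, 1 of the 10).

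**Figure D2:**
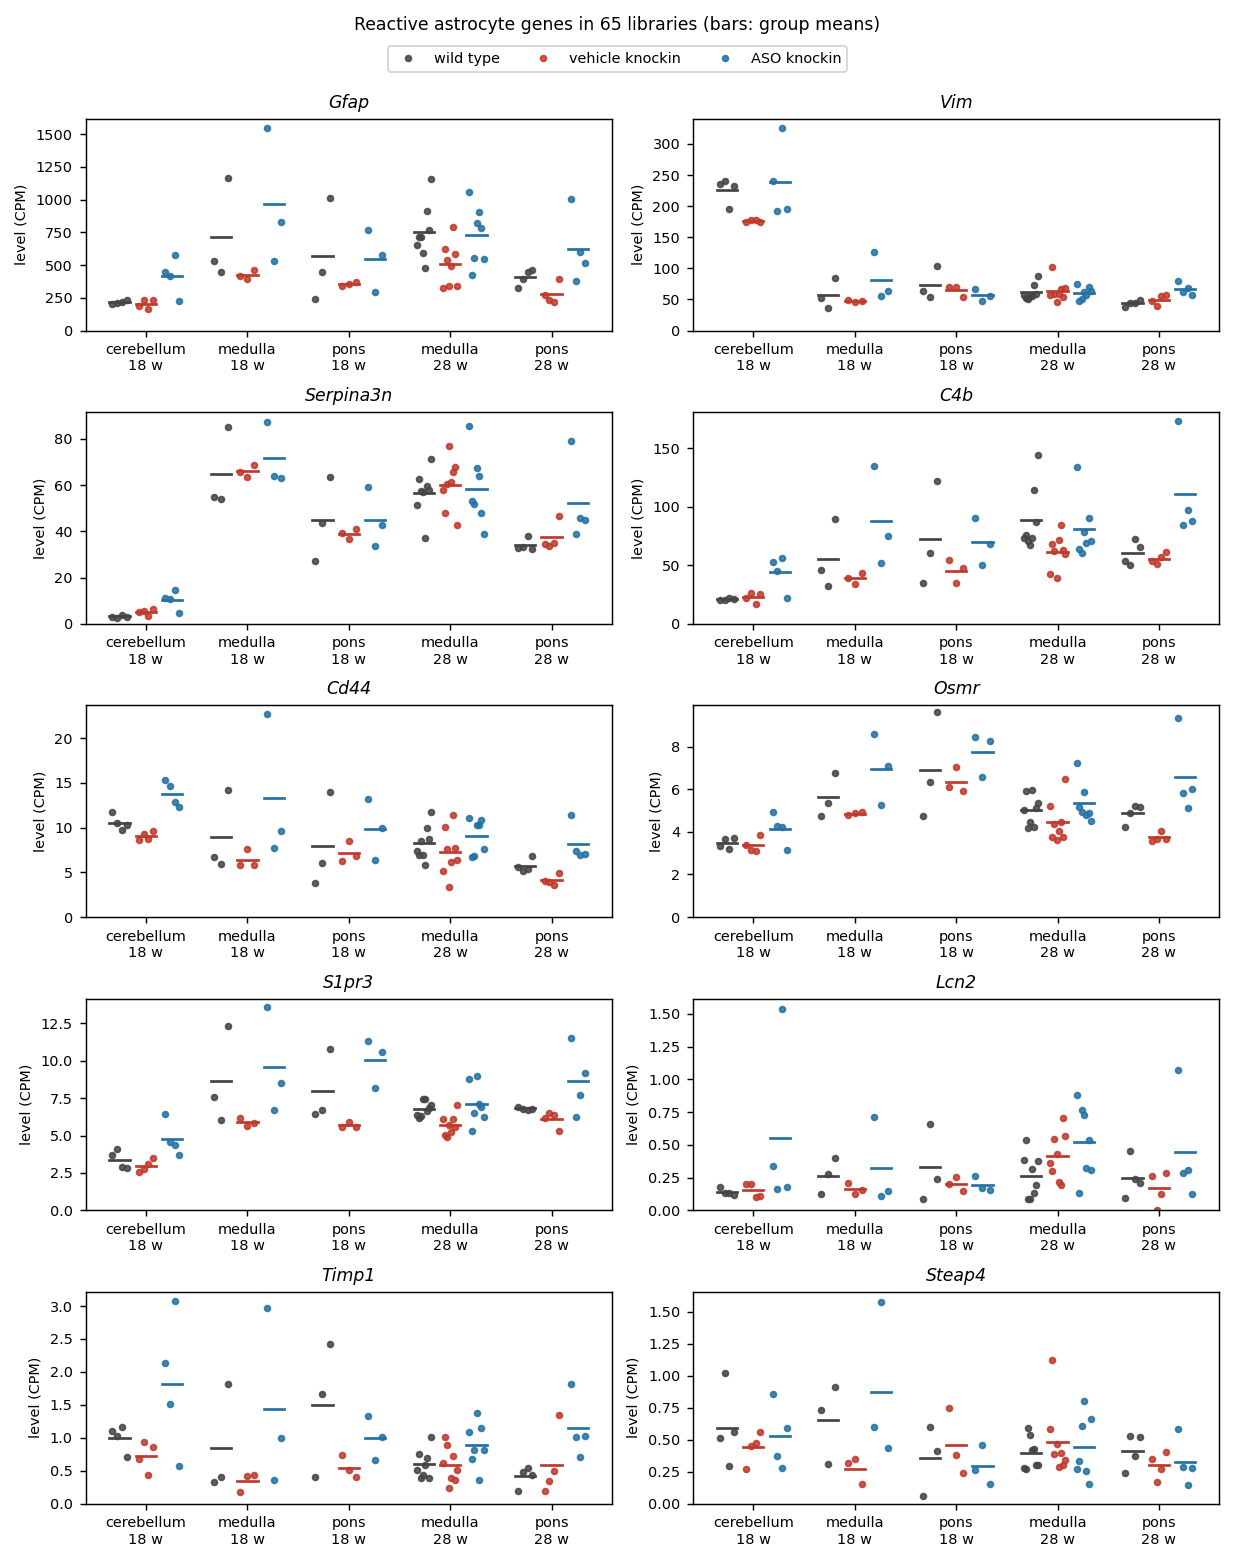
Level in CPM of each of the 10 genes in all 65 libraries, by tissue and age on the horizontal axis (dots are libraries, bars group means; grey wild type, red vehicle knockin, blue ASO knockin). The vertical axes start at 0 and differ between genes; single high libraries stand out in the ASO groups and, at 18 weeks in medulla and pons, in the wild type groups.

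The second question was what the ASO did to these genes in the knockin. In every tissue and age most of them had higher group means with the ASO than with vehicle, although only Cd44 in pons at 28 weeks passed the test. In pons at 28 weeks the log2 difference was above 0 for 10 of 10 genes, with a median of 0.88 against -0.01 over all genes tested, and 7 of the 10 were higher at an unadjusted p under 0.05. EdgeR called 0.0929% of 20458 genes there, 0.0831% as higher, and DESeq2 called 6 of the 10, all higher, among 3.03% of all genes.

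Cd44, the hyaluronan receptor, was at 4.0, 3.94, 3.56 and 4.88 CPM with vehicle and at 11.4, 7.35, 6.93 and 7.03 CPM with the ASO. All ASO libraries lay above all vehicle libraries, and replicate 1 lay far above the other three. The log2 difference was 1.00 ± 0.17 (SE, edgeR adjusted p = 0.039). It was 0.80 without ASO replicate 1 (edgeR adjusted p = 0.040), so it did not rest on that library. The call was lost in 8 of 12 fits that left out 1 library, those without ASO replicate 3, vehicle replicate 1, 2 or 3, or any 1 of the 4 wild type libraries (adjusted p up to 0.17). It was lost as well with a replicate block (0.99, edgeR adjusted p = 0.081) and with only the 2 groups in the fit (1.01, edgeR adjusted p = 0.19). Against wild type pons the ASO libraries were also higher for Cd44, by a log2 difference of 0.52 ± 0.16 (edgeR adjusted p = 0.12).

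Osmr, through which oncostatin M reaches gp130 and STAT3, was at 3.57, 3.66, 4.04 and 3.67 CPM with vehicle and 9.33, 5.80, 5.14 and 6.01 CPM with the ASO in pons at 28 weeks (0.82 ± 0.16, edgeR adjusted p = 0.074). C4b was at 53.5, 50.9, 56.7 and 61.7 CPM with vehicle and 173, 84.0, 97.4 and 87.8 CPM with the ASO (0.99 ± 0.23, edgeR adjusted p = 0.13). Cd44, Osmr and C4b were the 3 of 10 genes whose groups did not overlap, where 3.3% of all genes were higher without overlap. Gfap was at 274, 233, 221 and 390.1 CPM with vehicle and 1005, 382, 600.4 and 514 CPM with the ASO, so that the library labelled ASO replicate 2, whose Atxn1 was not lowered, fell within the vehicle range. Its log2 difference was 1.17 ± 0.30 (edgeR adjusted p = 0.15), and 0.84 without ASO replicate 1. Without the library labelled ASO replicate 2, 3 of the 10 genes were called, Cd44 (1.06, edgeR adjusted p = 0.0099), Osmr (0.89, 0.017) and S1pr3 (0.65, 0.013). The share of all genes called in that fit is not given here. Osmr was called also without ASO replicate 4 (0.88, edgeR adjusted p = 0.044).

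Most of the 10 genes also had higher group means in ASO than in wild type pons. Vim was at 79.6, 61.8, 67.7 and 56.6 CPM with the ASO and 37.6, 43.6, 43.8 and 49.7 CPM in wild type (0.61 ± 0.14, edgeR adjusted p = 0.057). Vim, Serpina3n, C4b, Cd44 and Timp1 were above all wild type libraries in all ASO libraries, 5 of 10 genes where 5.2% of all genes were. EdgeR called 0 of the 10 in this comparison, with 7 higher at an unadjusted p under 0.05 and 4 by DESeq2, among 1.07% of genes called by edgeR and 5.06% by DESeq2. Without vehicle replicate 4, Vim (0.61, edgeR adjusted p = 0.039) and Timp1 (1.47, 0.036) were called.

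In cerebellum at 18 weeks 10 of 10 log2 differences between ASO and vehicle were above 0, with a median of 0.81 against 0.02 over all genes. EdgeR called 0 of them, with 8 higher at an unadjusted p under 0.05 and 4 by DESeq2 (Gfap, Serpina3n, C4b and Cd44), among 0.0491% of genes called by edgeR and 1.15% by DESeq2. Cd44 stood at 8.63, 9.26, 8.69 and 9.64 CPM with vehicle and at 15.3, 14.6, 12.9 and 12.3 CPM with the ASO, without overlap (0.59 ± 0.09, edgeR adjusted p = 0.054). Gfap was at 186, 235, 165 and 230 CPM with vehicle and 445, 419, 580.3 and 227 CPM with the ASO (1.02 ± 0.22, edgeR adjusted p = 0.14). ASO replicate 4 was within the vehicle range for Gfap while the other three were well above it.

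That library also had the highest Atxn1 of the ASO cerebella, at 49.8 CPM against 31.4, 39.6 and 20.3 CPM, with 57.4 to 64.5 CPM in the vehicle group. It was the lowest of the ASO cerebella for 7 of the 10 genes, so leaving it out raises the differences of those genes by construction. Without ASO replicate 4, edgeR called 4 of the 10 genes higher in cerebellum: Gfap (1.21, adjusted p = 0.003), C4b (1.17, 0.0034), Cd44 (0.64, 0.023) and Serpina3n (1.25, 0.033). The share of all genes called in that fit is not given here, and the 0.0491% above is of the fit with all libraries. Cd44 was called also without ASO replicate 2 (0.57, edgeR adjusted p = 0.048) or ASO replicate 3 (0.63, 0.0065). Cd44, S1pr3 and Vim were the 3 of 10 genes whose groups did not overlap, against 3.1% of all genes. S1pr3, a receptor that couples a blood and platelet lipid to astrocyte responses, was at 2.59, 2.79, 3.11 and 3.49 CPM with vehicle and 6.45, 4.59, 4.34 and 3.70 CPM with the ASO (0.66 ± 0.19, edgeR adjusted p = 0.33).

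Serpina3n in cerebellum was at 11.3, 10.8, 14.8 and 4.69 CPM with the ASO, above every wild type library (2.68 to 4.0 CPM), with a log2 difference from wild type of 1.67 ± 0.30 (edgeR adjusted p = 0.17). Without ASO replicate 4 it was 1.90 (edgeR adjusted p = 0.0014). Even the highest of these libraries was below every library of medulla and pons, where Serpina3n was at 27.2 CPM or more. For ASO against wild type cerebellum edgeR called 0 of the 10 genes, with 6 higher at an unadjusted p under 0.05 and 4 by DESeq2, among 0% of genes called by edgeR and 2.06% by DESeq2. Cd44 and Serpina3n did not overlap, 2 of 10 genes where 3.96% of all genes were higher without overlap. Without ASO replicate 4, 3 were called, Serpina3n, Gfap (1.12, edgeR adjusted p = 0.0022) and C4b (1.25, 0.0011), and the share of all genes called in that fit is not given here.

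In medulla at 28 weeks the differences were smaller. Of the 10 log2 differences between ASO and vehicle 7 were above 0, with a median of 0.31 against -0.01 over all genes. EdgeR called 0 of them, with 3 higher at an unadjusted p under 0.05 and 1, S1pr3, by DESeq2, among 1.69% of genes called by edgeR and 3.02% by DESeq2. S1pr3 was at 4.93 to 7.04 CPM with a median of 5.62 CPM with vehicle, and at 8.81, 5.28, 6.53, 8.97, 7.09, 6.91 and 6.23 CPM with the ASO. Its log2 difference was 0.33 ± 0.10 (edgeR adjusted p = 0.11), and 0.38 (edgeR adjusted p = 0.024) without the library labelled ASO replicate 2. It was called also without vehicle replicate 8 (0.38, edgeR adjusted p = 0.048).

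Gfap in ASO medulla was at 1058, 423, 558, 822, 906, 785 and 546 CPM, which spanned nearly the whole wild type range, and its log2 difference was 0.56 ± 0.22 from vehicle (edgeR adjusted p = 0.26) and -0.01 ± 0.22 from wild type. Against wild type edgeR called 0 of the 10, with 1 higher, Lcn2, at an unadjusted p under 0.05 and 0 by DESeq2, among 3.8% of genes called by edgeR and 6.8% by DESeq2. Serpina3n (-0.05 ± 0.15), Vim (-0.06 ± 0.14) and Steap4 (-0.14 ± 0.30) were the 3 genes whose difference between ASO and vehicle was below 0. The ASO effect was smaller in medulla than in pons for all 10 genes, but no such difference passed the interaction test (edgeR, 0 called among 0% of 21718 genes, 4 at an unadjusted p under 0.05, 0 by DESeq2).

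**Figure D3:**
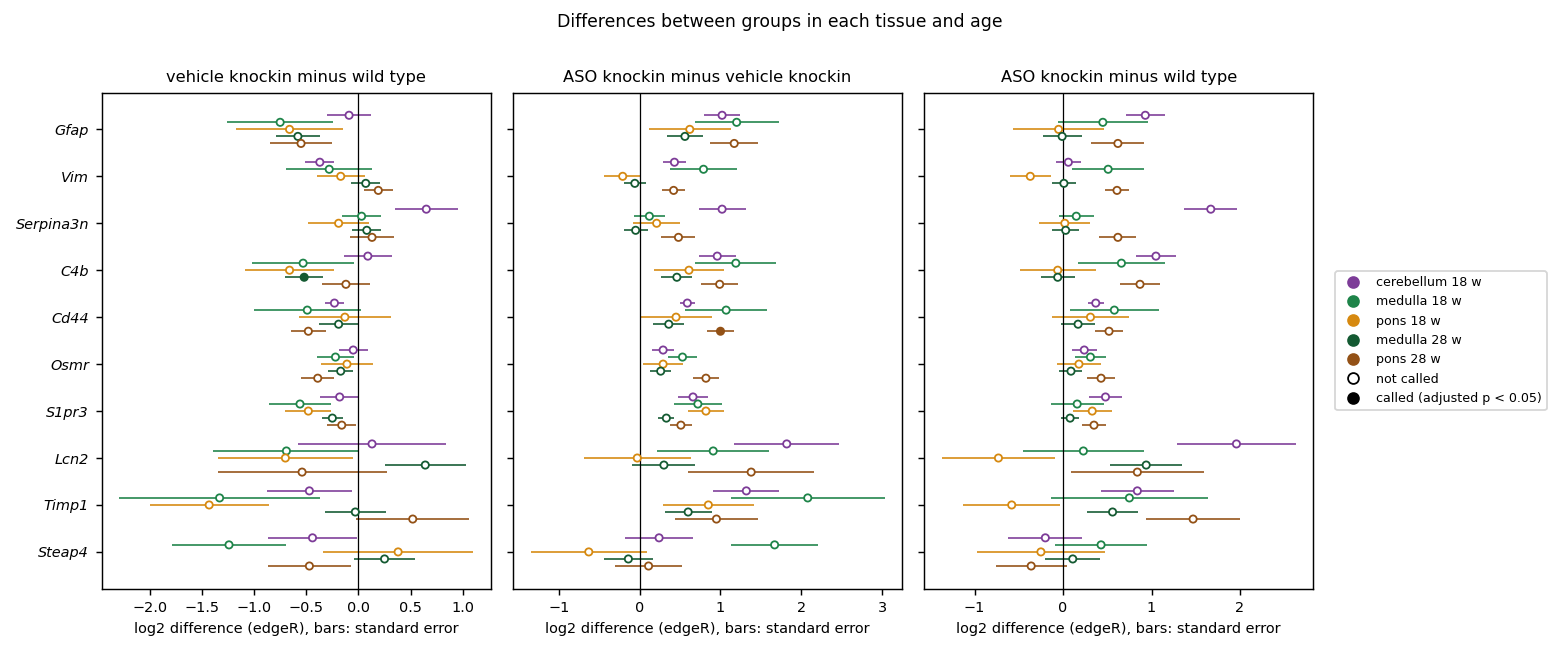
Log2 differences between groups from edgeR for the 10 genes (points, with standard errors as bars), coloured by tissue and age; filled points passed an adjusted p of 0.05. In the left panel (vehicle knockin minus wild type) only C4b in medulla at 28 weeks is filled, and in the middle panel (ASO minus vehicle knockin) only Cd44 in pons at 28 weeks; the right panel (ASO knockin minus wild type), which shares libraries with both others, has none.

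At 18 weeks in medulla and pons, where no gene of the table was called, edgeR called 0 of the 10 genes for ASO against vehicle, with 3 and 1 higher at an unadjusted p under 0.05 and 0 by DESeq2 in both. In medulla all 10 log2 differences were above 0 with a median of 0.99, and 7 genes did not overlap, against 6.71% of all genes. Gfap was at 418, 397 and 463 CPM with vehicle and 1549, 530.4 and 831 CPM with the ASO, and Timp1 at 0.172, 0.414 and 0.440 CPM with vehicle and 2.97, 0.361 and 0.991 CPM with the ASO. ASO replicate 1 was the highest of the 3 for 9 of the 10 genes and the library labelled ASO replicate 2 the lowest for 8. Gfap had a log2 difference of 1.20 ± 0.52, of 0.68 without ASO replicate 1 and of 1.51 without the libraries whose Atxn1 went against the label (edgeR adjusted p = 0.12).

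In pons at 18 weeks 7 of 10 differences were above 0, with a median of 0.37. S1pr3 was the 1 gene without overlap, against 5.93% of all genes, at 5.56, 5.93 and 5.54 CPM with vehicle and 11.3, 8.19 and 10.6 CPM with the ASO (0.82 ± 0.22, edgeR adjusted p = 0.75). S1pr3 thus lay above all vehicle libraries even in the library labelled ASO replicate 2, which for Gfap (294 CPM) and Vim (46.8 CPM) lay below them. Against wild type at 18 weeks edgeR called 0 of the 10 genes in medulla and 0 in pons, with 0 at an unadjusted p under 0.05 and 0 by DESeq2 in either. By interaction terms edgeR called 0 of the 10 genes, and DESeq2 0, for the ASO effect in cerebellum against medulla at 18 weeks (1 at an unadjusted p under 0.05) and in medulla at 28 against 18 weeks (2), where 0% of all genes were called.

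Lcn2, Timp1 and Steap4 were less alike. Lcn2, a secreted protein that binds bacterial iron carriers, was at 0.202, 0.201, 0.101 and 0.113 CPM with vehicle and 0.340, 0.161, 1.54 and 0.176 CPM with the ASO in cerebellum. Its log2 difference of 1.82 ± 0.65 (edgeR adjusted p = 0.51) was 0.53 without ASO replicate 3, so that library held most of it. In pons at 28 weeks Lcn2 was at 0.266, 0, 0.123 and 0.289 CPM with vehicle and 1.07, 0.286, 0.306 and 0.126 CPM with the ASO, and its difference of 1.38 ± 0.78 (edgeR adjusted p = 0.44) was 0.49 without ASO replicate 1. Timp1, which blocks matrix metalloproteinases, was at 0.685, 0.933, 0.428 and 0.856 CPM with vehicle and 2.13, 1.52, 3.07 and 0.572 CPM with the ASO in cerebellum (1.32 ± 0.41, edgeR adjusted p = 0.38). Timp1 had a log2 difference above 0 in all 5 tissues and ages, from 0.60 in medulla at 28 weeks to 2.08 in medulla at 18 weeks. Steap4, which reduces iron and copper, was above 0 in 3 of the 5 and had -0.63 ± 0.72 in pons at 18 weeks (edgeR adjusted p = 0.86).

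Viewed library by library, the 21 ASO libraries varied widely, and those highest in these genes were often those lowest in Atxn1. In pons at 28 weeks replicate 1, with the lowest Atxn1 of the 4 (25.6 CPM), had the highest level of all 10 genes among ASO libraries and exceeded every vehicle library for all 10, with a median log2 ratio to the vehicle mean of 1.40. Its medulla counterpart, ASO replicate 1 at 28 weeks, whose column carries the same number in the count table, had the lowest Atxn1 of the 7 (24.8 CPM) and was the highest for 7 of the 10 genes, with a median log2 ratio of 0.66. At 18 weeks the columns of ASO replicate 1 carry the same number in cerebellum, medulla and pons. These libraries exceeded every vehicle library of their tissue for 10, 10 and 8 of the 10 genes, with Atxn1 at 31.4, 13.3 and 16.4 CPM and median log2 ratios of 1.12, 1.61 and 0.74.

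Libraries with Atxn1 near the vehicle level mostly had small median log2 ratios, though some of them exceeded every vehicle library for several genes. ASO replicate 4 of cerebellum had a median log2 ratio of 0.16, and the libraries labelled ASO replicate 2 had 0.21 in medulla and -0.08 in pons at 18 weeks, and -0.15 in medulla and 0.52 in pons at 28 weeks. The last of these values was above that of ASO replicate 3 of pons, 0.45, whose Atxn1 was lower. That of medulla at 28 weeks was within the vehicle range for 9 of the 10 genes and above it for none. The library labelled ASO replicate 2 of medulla at 18 weeks was above every vehicle library for 7 of the 10. ASO replicate 4 of cerebellum was above for 4, and those labelled ASO replicate 2 of pons for 1 at 18 weeks and 4 at 28 weeks. In the medulla library at 18 weeks Steap4 was at 1.58 CPM against 0.157 to 0.350 CPM with vehicle, the highest Steap4 of all 65 libraries. Vehicle libraries at 18 weeks were uniform by comparison, with Gfap at 342 to 374 CPM in pons and 397 to 463 CPM in medulla at 18 weeks.

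**Figure D4:**
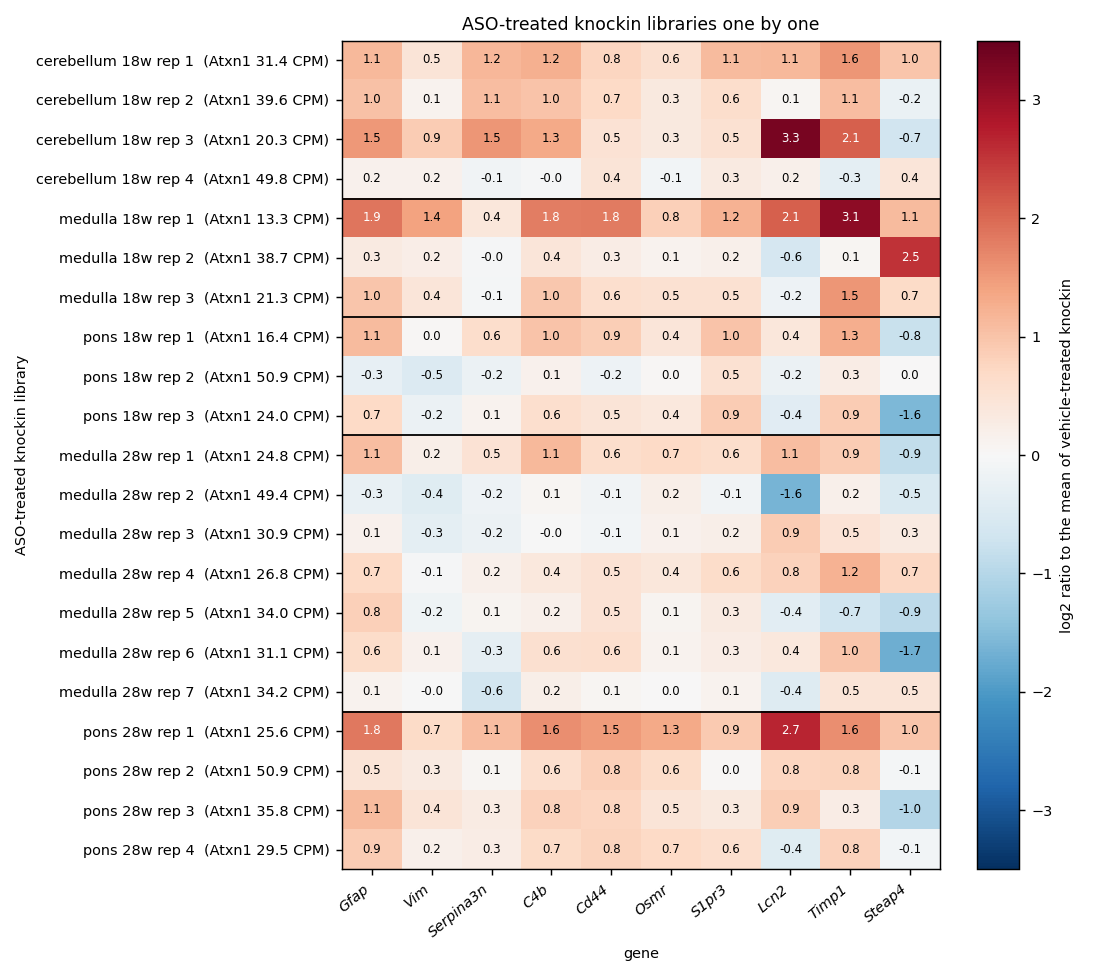
Log2 ratio of each gene (columns) in each of the 21 ASO libraries (rows) to the mean of the vehicle knockin libraries of the same tissue and age, with the Atxn1 level of each library in its row name; red is higher and blue lower than vehicle. The reddest rows are ASO replicate 1 of pons at 28 weeks and of medulla at 18 weeks, and the libraries of pons at 18 weeks and medulla at 28 weeks labelled ASO replicate 2 have median log2 ratios of -0.08 and -0.15.

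The relation to Atxn1 could be tested over the 7 ASO libraries of medulla at 28 weeks, and it was chosen after the data were seen. Lcn2 had a Pearson r of -0.94 with Atxn1 (exact permutation p = 0.00099, adjusted over 10 genes 0.0099; Spearman rho -0.96, p = 0.0028, adjusted 0.028, exact permutation), and -0.84 without the 2 libraries farthest from the median of Atxn1. S1pr3 had an r of -0.92 (exact permutation p = 0.0044, adjusted 0.022; rho -0.82, p = 0.034, adjusted 0.17), and -0.84 without those libraries. For Gfap r was -0.80 (exact permutation p = 0.025, adjusted 0.083; rho -0.75, p = 0.066, adjusted 0.22) and -0.25 without them, so it rests on those libraries. The other 7 genes had r between -0.73 for Vim and -0.11 for Steap4, with adjusted exact permutation p of 0.13 or more. These values take no account of batch, and the 7 libraries lie in 2 batches of 4 and 3, too few for a value within each. With the batch means removed from both measures and exact permutation within batches, Lcn2 had r = -0.96 (p = 0.021, adjusted over 10 genes 0.12), S1pr3 -0.92 (p = 0.049, adjusted 0.12) and Gfap -0.83 (p = 0.035, adjusted 0.12), and no gene passed at an adjusted p of 0.05. The smallest p that the 144 orders can give is 0.0069.

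Of the markers of other cells, the microglial sum was high in some of the same libraries. The summed level of 12 microglial genes was 705 CPM in ASO replicate 1 of pons at 28 weeks, where ASO replicates 2, 3 and 4 had 406, 467 and 486 CPM, with 353 to 421 CPM in vehicle libraries and 394 to 410.0 CPM in wild type. In ASO replicate 1 of medulla at 18 weeks it was 830.1 CPM against 371 to 382 CPM with vehicle, and in the library labelled wild type replicate 3 it was 615 CPM against 388 and 405 CPM. None of the 12 microglial genes was at 0 in all libraries of a group. With the ASO 3 of the 12 rose in medulla at 28 weeks, where 1.69% of all genes were called and the sum of the 12 was 385 to 569 CPM against 351 to 533 CPM with vehicle. Those that rose were Cd68 (0.63 ± 0.14), Trem2 (0.49 ± 0.12) and Ctss (0.35 ± 0.08), genes of lysosome and phagocytosis. In pons at 28 weeks and in cerebellum 0 of 12 microglial genes were called by edgeR, where 0.0929% and 0.0491% of all genes were. The part of microglial genes in the differences of C4b, Cd44 and the other genes was not tested. In pons at 28 weeks the endothelial sum was 309, 299, 298 and 304 CPM with the ASO, so replicate 1 did not stand apart. It was 233 to 250.2 CPM with vehicle, without overlap. Of the 10 endothelial genes 1 rose, Flt1 (0.39 ± 0.04, edgeR adjusted p = 0.002). The oligodendrocyte sum there was 13459 to 18397 CPM with the ASO and 10113 to 14998 CPM with vehicle, and 0 of its 8 genes were called by edgeR. Their part in the values of Vim and C4b was not tested either. T cell genes were sparse: of 10 listed 6 passed the filter on low counts in pons at 28 weeks, and Cd3e was at 0 to 0.261 CPM over all libraries. The 8 choroid plexus genes summed to 26.2 to 167 CPM with the ASO and 30.3 to 56.3 CPM with vehicle in pons at 28 weeks.

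Other genes of the astrocyte were compared from fixed lists. Of 17 genes of resting astrocytes, which handle glutamate, potassium and gap-junction coupling, 13 fell in knockin medulla at 28 weeks, 0 rose and 4 did not pass. There 9.99% of all genes were called lower. Slc1a2, the main glutamate transporter, fell by a log2 difference of -0.91 ± 0.09 (edgeR adjusted p = 4.3e-07), and Aqp4, the water channel of astrocyte endfeet, by -0.30 ± 0.09 (edgeR adjusted p = 0.023). In pons at 28 weeks 12 of the 17 fell, where 9.79% of all genes were called in either direction, and in cerebellum 2, where 2.71% were. With the ASO 12 of the 17 rose in medulla at 28 weeks, where 1.69% of all genes were called, Slc1a2 by 0.69 ± 0.09 (edgeR adjusted p = 0.00045). In pons at 28 weeks 0 were called by edgeR, where 0.0929% of all genes were. The sum of the 17 there was 8587, 6017, 7074 and 7411 CPM with the ASO and 5336 to 6066 CPM with vehicle. The median log2 difference of the list was -0.55 in knockin medulla, against -0.10 for the 10 reactive genes.

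A common scheme divides reactive genes by the kind of injury. Of 11 tested genes of the A1 set, described after inflammation, 3 rose and 1 fell in knockin medulla at 28 weeks, where 19.3% of all genes were called. Those that rose were Iigp1 (0.68 ± 0.16, edgeR adjusted p = 0.0044), Psmb8 (0.25 ± 0.08) and H2-D1 (0.23 ± 0.04), which are interferon-induced GTPase, proteasome and antigen presentation genes, and Ggta1 (-0.35 ± 0.10) fell. Of 11 tested genes of the A2 set, described after ischaemia, 1 fell, S100a10 (-0.34 ± 0.11, edgeR adjusted p = 0.026). Tgm1, a transglutaminase of the A2 set, rose with the ASO in medulla by 1.92 ± 0.47 (edgeR adjusted p = 0.035). Of 4 other pan-reactive genes, Aspg fell in knockin medulla (-1.03 ± 0.25, edgeR adjusted p = 0.0052).

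Of 16 tested genes of gp130 and STAT3 signalling in medulla at 28 weeks, 1 rose and 2 fell in the knockin, a share near the 19.3% of all genes called there. Lif, a cytokine of this family, fell by -1.06 ± 0.22 (edgeR adjusted p = 0.0014), Cntfr, the receptor of ciliary neurotrophic factor, by -0.24 ± 0.04 (edgeR adjusted p = 0.00021), and Jak2, the kinase, rose by 0.14 ± 0.05. In pons at 28 weeks, where 9.79% of all genes were called, 3 fell, Lif (-1.02 ± 0.24), Cntfr (-0.24 ± 0.06) and Lifr (-0.28 ± 0.08). Stat3 was at 75.5 ± 3.57 CPM in wild type, 79.2 ± 4.10 in vehicle knockin (SD, n = 8 each) and 79.0 ± 7.41 CPM in ASO medulla (n = 7), and was not called. Socs3, the feedback inhibitor that STAT3 induces, was at 1.55 ± 0.188, 1.47 ± 0.552 and 1.76 ± 0.297 CPM and was not called either. The ASO and vehicle ranges of Socs3 overlapped in cerebellum, in pons at 18 weeks and in medulla at 28 weeks. Stat3 in pons at 28 weeks was at 68.4 to 86.3 CPM with the ASO and 61.6 to 67.2 CPM with vehicle. Of 14 complement genes tested in medulla at 28 weeks, C3 fell in the knockin (-0.81 ± 0.26, edgeR adjusted p = 0.033), with 7.70 ± 3.31 CPM in vehicle knockin against 13.5 ± 5.05 CPM in wild type (SD, n = 8 each).

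Within groups, some of the 10 genes varied together and some did not. Over the 23 libraries of medulla at 28 weeks, after group and batch effects were removed from log2(CPM + 0.1), Cd44 had the highest correlation with Gfap of the 9 other genes (r = 0.88, rho = 0.93, permutation p = 1e-05 for both, the smallest 100000 resamples give, adjusted over 9 genes 4.5e-05). C4b followed (r = 0.81, rho = 0.80, permutation p = 1e-05, adjusted 4.5e-05), then Serpina3n (r = 0.65, adjusted permutation p = 0.0025; rho = 0.63, adjusted 0.0051) and Vim (r = 0.59, adjusted permutation p = 0.0047; rho = 0.56, adjusted 0.013). Without the 2 libraries farthest from the Gfap median these 4 had r of 0.87, 0.82, 0.58 and 0.55. Timp1 had r = 0.44 (adjusted permutation p = 0.067) and rho = 0.47 (adjusted 0.043), Lcn2 and S1pr3 0.18 each, and Osmr and Steap4 -0.07 each.

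Cd44 and C4b kept their relation to Gfap in each batch, with r of 0.85 and 0.91 over 12 libraries of batch 1 and 0.93 and 0.79 over 11 of batch 2. Serpina3n did not: its r was 0.29 in batch 1 and 0.93 in batch 2, and 0.30 over the 18 libraries left without those of low Hox genes, so it rests on those libraries. Vim had r of 0.78 in batch 1 and 0.43 in batch 2 (adjusted permutation p = 0.0051 and 0.34), and Timp1 0.70 and 0.19 (0.025 and 0.57). Without the libraries of low Hox genes Timp1 had r = 0.67 (adjusted permutation p = 0.0054). Over the 45 pairs of the 10 genes the median r was 0.21, 37 were above 0, and the range was -0.38 to 0.88. Over all 23 libraries S1pr3, Lcn2, Osmr and Steap4 were the genes least like Gfap. Without the libraries of low Hox genes their r was 0.42, 0.45, 0.31 and 0.22, so Serpina3n, at 0.30, was then below 3 of them. In batch 2 alone it was -0.25, -0.23, -0.52 and -0.34 for these 4.

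**Figure D5:**
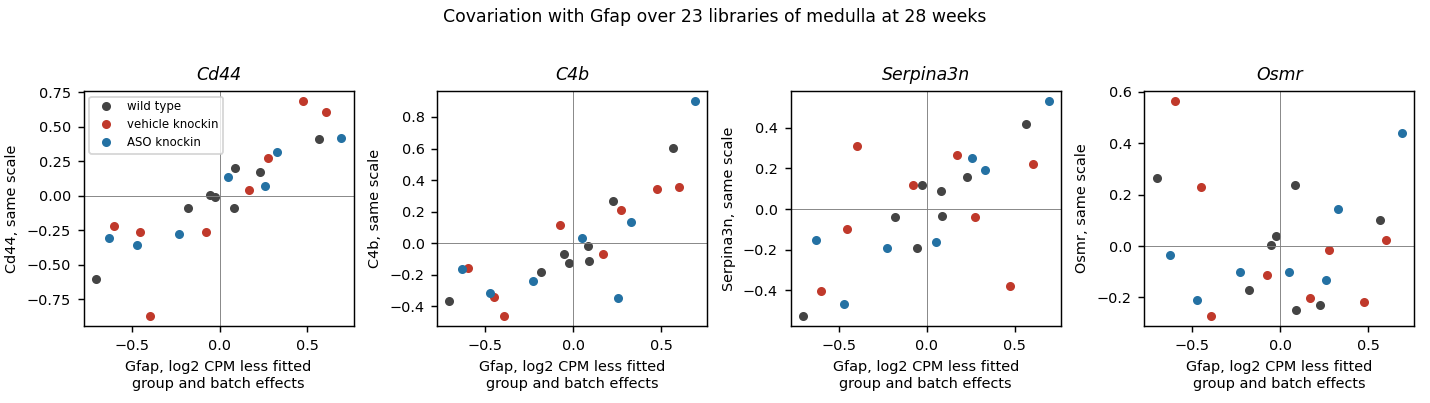
Gfap (horizontal) against Cd44, C4b, Serpina3n and Osmr (vertical) over the 23 libraries of medulla at 28 weeks, as log2 CPM after group and batch effects were removed; grey wild type, red vehicle knockin, blue ASO knockin. Points for Cd44 (r = 0.88) and C4b (r = 0.81) lie along a line, and those for Osmr (r = -0.07) do not.

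Among 13901 genes searched, the 5 whose pattern over the same 23 libraries was most like that of Gfap were Ccdc3 (r = 0.94), C3 (0.91), Pld4 (0.89), Msn (0.89) and Lpl (0.88). For Serpina3n they were Kcng1 (0.94), Flot2 (0.93), Mypn (0.93), Ecel1 (0.92) and Adra1d (0.91), with no gene in common with the Gfap list. These are descriptions chosen from many genes and share the libraries and their depth. Between medulla and pons at 28 weeks, 12 pairs of libraries whose columns carry the same number could be compared, a choice made after the data were seen. Serpina3n had r = 0.82 between the tissues after group means were removed (permutation p = 0.00098, adjusted over 10 genes 0.0098; rho = 0.68, adjusted 0.19) and was 0.47 without the 2 pairs farthest from the median. Gfap had r = 0.27 and Cd44 -0.08 (adjusted permutation p = 0.49 and 0.80).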

How the data were processed

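RNA of 65 libraries was sequenced on stranded TruSeq libraries, per the labels. The authors deposited raw gene counts, and the submitters' processing notes name CASAVA 1.8, HISAT2 2.0.2, featureCounts of Subread, R 3.3.3, DESeq2 1.14.1 and the build GRCm38. The strand and pair settings of the counting are not given in the sources used here. Of the counts from 1 to 20, 70.0% to 78.6% in a library were even, so a fragment may have been counted by both mates and counting intervals would be too narrow. Timp1 lies in an intron of Syn1 on the other strand, and Gfap and Cd44 each overlap a small non-coding gene, so their reads could be shared if strand was not used. Gene IDs were matched to GENCODE vM21 symbols for 49411 of 49670 rows; the 259 unnamed rows hold 0.035% of counts.

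The 10 genes and all lists were chosen with earlier results of these data known. Counts were tested in R 4.3.3 with edgeR 4.0.16 (TMM, filterByExpr with a minimum count of 10, robust quasi-likelihood fit), with 3 groups per tissue and age in 1 model, batch as a covariate in medulla at 28 weeks, and joint models for regional differences and interactions. P-values were adjusted by Benjamini-Hochberg over all genes tested and called under 0.05; all 10 genes passed the filter in every comparison. Shares of all genes called are those of fits with all libraries and are not given for fits that left libraries out. Standard errors are the log2 difference divided by the root of the F statistic. CPM values were scaled by TMM over all libraries, and levels between genes were divided by exon length. Permutation tests are two-sided. Alternatives were DESeq2 1.42.0, its size factors, no filter, only the groups compared, each library left out, a replicate block, single batches, and leaving out libraries with low Hox genes or with Atxn1 against the label. The scripts were tested on simulated data. All 10 genes and Atxn1 are named; of other lists, up to 3 called genes of smallest adjusted p per comparison, besides Stat3, Socs3, C3, C4a, Aqp4, Slc1a2, Cx3cr1, Cldn5, Cd3e and Ttr. Ggta1 is named outside this rule, and was chosen after its value was seen.

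The labels give libraries of different groups the same replicate numbers. The check for pairing correlated the deviations of same-numbered libraries from their group means, which ranged from -0.53 to 0.51 over the tissues and ages. The medians per tissue and age were -0.37 to -0.06 for same-numbered libraries and -0.01 to 0.09 for different numbers. No pairing by number was seen, but groups this small cannot exclude it. The columns of the count table end in a number of 5 digits; there are 38 such numbers, 21 of which recur across tissues, and the labels do not say what they mark.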

Additional observations from a re-analysis of the deposited data

Results flagged for a closer look

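A sample far from the others of its group was found 8 times among 90 groups of 4 to 8 libraries, by Dixon's criterion at the 95% level, which chance alone meets in about 1 in 20 groups. Of these, 3 concern ASO replicate 1 at 28 weeks. Its C4b level was 134 CPM in medulla, where the other ASO libraries had 60.7 to 90.2 CPM, and 173 CPM in pons, where the others had 84.0 to 97.4 CPM. Its Cd44 level was 11.4 CPM in pons against 6.93 to 7.35 CPM in the others. Lcn2 was at 1.54 CPM in ASO replicate 3 of cerebellum against 0.161 to 0.340 CPM in the other 3 ASO cerebella, and this library also had the lowest Atxn1 of its group, 20.3 CPM. Vehicle replicate 2 of medulla at 28 weeks had Vim at 102 CPM against 45.3 to 68.4 CPM and Steap4 at 1.12 CPM against 0.284 to 0.581 CPM. The same library had the highest Ttr of the series, 23691 CPM. Vim was at 195 CPM in wild type replicate 3 of cerebellum, below the 233 to 241 CPM of the other 3. Serpina3n was at 46.6 CPM in vehicle replicate 4 of pons at 28 weeks against 33.6 to 35.0 CPM in the others.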

How the results depend on the processing

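Of 7348 values recomputed for single genes (the 10 genes and Atxn1) under the alternatives, 0 called values reversed, 54 lost a call and 78 gained one; 94 of 275 results changed sign somewhere, all of them uncalled in the reported fit. The number of the 10 genes called changed as follows, and the cause was not tested. With DESeq2 it went from 0 to 4 for ASO against vehicle and from 0 to 4 for ASO against wild type in cerebellum, from 1 to 3 for the knockin and from 0 to 1 for the ASO in medulla at 28 weeks, and in pons at 28 weeks from 0 to 1 for the knockin, from 1 to 6 for ASO against vehicle and from 0 to 4 for ASO against wild type. It also added Vim for wild type medulla against pons, from 2 to 3. With only the 2 groups compared it was 2 for the knockin in cerebellum, medulla at 28 weeks and pons at 28 weeks, and 0 for the ASO in pons. With no filter on low counts it was 0 for the knockin in medulla, 2 for the ASO in pons and 1 for wild type medulla against pons. For the knockin in medulla it was 0 in batch 1, in batch 2, without libraries of low Hox genes and without the library whose Atxn1 went against the label. Leaving out such libraries gave 7 instead of 6 for wild type cerebellum against medulla and against pons, where Cd44 was added, 1 for the ASO in medulla and 3 for the ASO in pons at 28 weeks. With the replicate number as a block it was 0 for the ASO in pons, 1 for wild type medulla against pons and 1 for the knockin in medulla, where the gene called was S1pr3 (-0.26, edgeR adjusted p = 0.035) and no longer C4b; the block changed no other count of called genes. For the block over tissues at 18 weeks by column number, chosen after seeing the data, C4b between wild type cerebellum and medulla was not called (-0.84, edgeR adjusted p = 0.059). The 2 ages of medulla share no column number and were not blocked. Leaving out 1 library at a time gave 0 to 1 called genes for the knockin, 0 to 4 for ASO against vehicle and 0 to 3 for ASO against wild type in cerebellum; 0 to 2 and 0 to 1 for the knockin and the ASO in medulla at 28 weeks; 0 to 2, 0 to 3 and 0 to 2 for the 3 comparisons in pons at 28 weeks; 1 to 3 for wild type medulla against pons at 28 weeks; and 5 to 6 for wild type cerebellum against medulla. The number of genes correlated with Gfap in medulla was 4 (Cd44, C4b, Serpina3n and Vim). It was 4 also in batch 1 and without low Hox libraries, where Timp1 took the place of Serpina3n, and 3 in batch 2, where Vim did not pass. Over all genes DESeq2 called more than edgeR, for the knockin 1290 against 552 in cerebellum and 3006 against 2002 in pons at 28 weeks, and for ASO against vehicle 235 against 10 in cerebellum, 618 against 346 in medulla and 620 against 19 in pons at 28 weeks. Depth limits Lcn2 and Steap4, with as few as 0 and 4 counts in a library.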
